A study of Mus musculus with 12 samples.

Results

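The 9 genes described here encode lipoprotein lipase, the related hepatic lipase and the proteins that fold, carry, activate or inhibit these enzymes. They were Lpl, Lipc, Lmf1, Gpihbp1, Apoc2, Apoa5, Apoc3, Angptl4 and Angptl8, 9 of the 57180 genes in the table. The set was chosen by gene name because Lpl was strongly higher in KO livers, and the other 8 genes entered for their roles around the enzyme. The change of Lpl between genotypes is therefore given as a description, with no test.

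The study sequenced liver RNA from 12 mice, with 3 females and 3 males in each of 2 genotypes. All mice lacked Csa, also called Ercc8, a transcription-coupled repair factor whose loss in people causes Cockayne syndrome. All received AAV9-CSA at birth by injection into the brain ventricles, a viral vector that expresses human CSA from the chicken β-actin promoter. The Het mice also carried Xpa+/-, and were littermates killed at matched age without signs of disease. The KO mice were the severely affected group, called CX mice, killed at the humane endpoint. The study's account calls CX mice Csa-/- Xpa-/- and places Csa-/- Xpa+/+ mice among the unaffected littermate controls. The labels and the study's methods nevertheless write Xpa+/+ for KO. That label conflicts with the study's own groups, and Xpa RNA was lower in KO than in Het, so KO is read here as Xpa-/-. Xpa RNA ran from 0.990 to 1.82 CPM (counts scaled to the library total) in the 6 KO livers and from 3.13 to 6.32 CPM in the 6 Het livers. Ercc8 RNA ran from 14.7 to 34.3 CPM in KO and from 5.12 to 8.76 CPM in Het. Whether reads of the human CSA vector were counted for Ercc8 was not tested. Feeding state and hour of killing were not given in the sources used here. KO and disease at endpoint came together in these mice and cannot be told apart.

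Lipoprotein lipase splits triglyceride carried by chylomicrons and very-low-density lipoproteins (VLDL), so that tissues can take up the fatty acids. It is made mainly in fat, muscle and heart, is folded in the cell with the chaperone LMF1, and is carried across capillary endothelium by GPIHBP1. APOC2 activates it and APOA5 aids it, while APOC3, ANGPTL4 and ANGPTL8 restrain it. Adult liver makes little lipoprotein lipase and relies on hepatic lipase, the product of Lipc, for remnant and HDL lipids.

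The 9 genes are protein-coding, and their positions on GRCm39 are given from the GENCODE vM39 annotation. Lpl (ENSMUSG00000015568.17) lies on chromosome 8 at 69284603-69360100, and the canonical transcript has 10 exons. Lipc (ENSMUSG00000032207.11) lies on chromosome 9 at 70705410-70859508. Angptl8 lies on chromosome 9 at 21746786-21748643, inside Dock6 on the opposite strand. Apoc3 (46142527-46146934) and Apoa5 (46179931-46183217) are neighbours on chromosome 9. Lmf1 (25798048-25888183) and Angptl4 (33992724-34000804) lie on chromosome 17. Apoc2 lies on chromosome 7 at 19405504-19411877, and Gpihbp1 on chromosome 15 at 75468474-75471331. Apoc2 shares its strand with the overlapping Apoc2l, so reads could be split between them and its level is less certain.

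Promoter sequence from RefSeq (GRCm38.p6 table) was found for 5 of the 9 genes, and 2 windows are printed because Lipc and Angptl8 had the most negative log2 fold changes among these genes, of which that of Angptl8 did not pass the test (edgeR adjusted P = 0.0857). Each window is the 250 bases before the start, 5′ to 3′, and was located in GRCm39 by exact match. The Lipc window is chr9:70842091-70842340 on the minus strand, next to the annotated canonical start. RefSeq gives Lipc a second window farther upstream (chr9:70859504-70859753), which is not printed. The Angptl8 window is chr9:21746556-21746805 on the plus strand, and its last bases reach into the annotated first exon. Capitals mark the motifs searched.
Lipc: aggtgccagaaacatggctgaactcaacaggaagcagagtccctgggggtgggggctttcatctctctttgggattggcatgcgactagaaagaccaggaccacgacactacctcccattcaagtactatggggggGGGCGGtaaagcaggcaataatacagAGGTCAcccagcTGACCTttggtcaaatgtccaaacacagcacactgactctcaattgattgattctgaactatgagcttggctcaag
Angptl8: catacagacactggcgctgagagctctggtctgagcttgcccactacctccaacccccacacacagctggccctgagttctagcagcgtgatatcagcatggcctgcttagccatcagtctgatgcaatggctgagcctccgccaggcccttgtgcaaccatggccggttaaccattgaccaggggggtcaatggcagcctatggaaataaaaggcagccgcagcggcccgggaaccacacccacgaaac
On both strands, the searched motifs were AGGTCA (the nuclear receptor half-site), GTTAAT (a half-site of hepatocyte nuclear factor 1), TATAAA (the TATA box), CACGTG (the E-box) and GGGCGG (the GC box). The printed Lipc window held AGGTCA at 2 places, which 14.0% of 32536 RefSeq promoter windows of this length had at least once. It also held GGGCGG once, found in 33.0% of windows. None of the 5 motifs was in the Angptl8 window or in the second Lipc window. A match is a description of letters and not a binding site.

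The libraries held 30044812 to 43634073 counts. Expression of the 12 livers within a group correlated at 0.964 to 0.980 (Pearson's r of log2 CPM, across genes). The first principal component held 36.2% of variance and separated the genotypes, and KO_F_108 lay farthest along it. Of the 19355 genes that passed the filter of 5 reads in 3 livers, 21.7% were called between genotypes (edgeR quasi-likelihood test, Benjamini-Hochberg adjusted P under 0.05, 2200 higher and 1999 lower in KO). The called share was 9.83% in females and 6.92% in males. Of all tested genes, 9.55% had 6 KO livers that did not overlap the 6 Het livers. All 9 genes passed the filter. Mice were separate animals, and P values therefore reflect the spread between animals.

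Lpl was the gene with the largest difference of the set. In Het females its level was 10.7, 12.9 and 16.2 CPM, and in Het males 16.0, 11.0 and 16.1 CPM. In KO females it was 195, 196 and 266 CPM, and in KO males 211, 275 and 341 CPM. Every KO liver lay above every Het liver, and the lowest KO value was 12.0 times the highest Het value. The log2 fold change was 4.15 ± 0.180 (SE, n = 6 per genotype), or 17.7-fold. It was 4.04 ± 0.253 in females (16.4-fold) and 4.26 ± 0.256 in males (19.1-fold), with 3 livers per group. Lpl ranked number 25 of all 19355 genes by rise, and 11 genes with larger rises had a mean level of at least 10 CPM. TPM values divide by transcript length and so allow levels of different genes to be compared, and on that scale Lpl ran from 2.48 to 4.08 in Het livers and reached 43.6 to 78.8 TPM in KO.

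Lpl did not differ detectably between sexes (log2 male over female 0.22 ± 0.159, 95% interval -0.125 to 0.569, edgeR adjusted P = 0.566). The genotype difference also did not differ detectably between sexes (interaction 0.22 ± 0.319, interval -0.479 to 0.912, edgeR adjusted P = 0.863). For the whole table, 0.935% of genes were called between sexes and 0.0465% in the interaction. None of the 9 genes was called in either comparison, by edgeR, DESeq2 or limma. With edgeR, 1 member had an unadjusted P under 0.05 in each comparison, which was Lmf1.

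**Figure D1:**
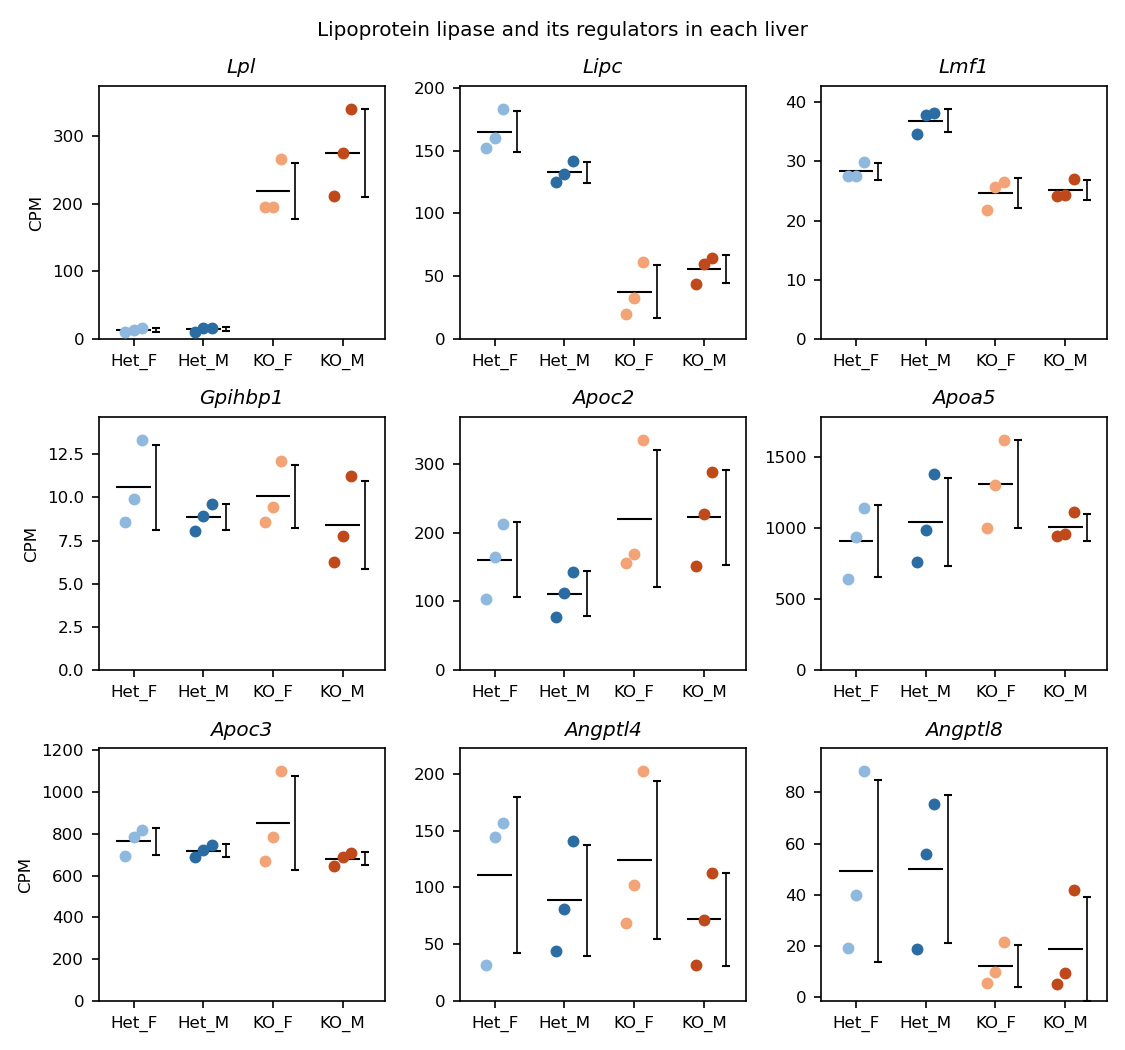
Level of each of the 9 genes in CPM (linear axis from 0, lower where an SD bar passes it) in the 3 livers of each group, with bars for the mean and SD. Lpl is at 10.7 to 16.2 CPM in the Het livers and at 195 to 341 CPM in the KO livers, while Lipc and Lmf1 are lower in all KO livers.

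Lipc, which encodes hepatic lipase, was lower in KO. Its level was 183, 160 and 152 CPM in Het females and 131, 142 and 125.1 CPM in Het males. In KO it was 19.6, 32.6 and 61.4 CPM in females and 59.6, 64.8 and 43.6 CPM in males. All KO livers lay below all Het livers, and KO_F_108 had the lowest level. Lipc fell by 1.68 ± 0.229 on the log2 scale (SE, n = 6 per genotype, 3.21-fold, edgeR adjusted P = 0.000799). It fell by 2.12 ± 0.329 in females (edgeR adjusted P = 0.00554) and it fell by 1.24 ± 0.320 in males (edgeR adjusted P = 0.0402), with 3 livers per group. The male call did not hold in 10 of 12 fits that left out 1 liver each, with adjusted P from 0.0529 to 0.130 in those 10. The genotype difference was 0.88 ± 0.447 smaller on the log2 scale in males, with an interval from -0.102 to 1.86, and did not pass (edgeR interaction adjusted P = 0.592).

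The ratio of Lipc to Lpl in TPM was 20.1 to 41.2 in the 6 Het livers and 0.201 to 0.649 in the 6 KO livers. Lipc was thus the more abundant lipase RNA in every Het liver, and Lpl in every KO liver. By TPM, Lpl stood 9th of the 9 genes in every Het liver and 4th in 5 of the 6 KO livers, with KO_F_108 the exception at 5th. Lipc stood 4th in 5 Het livers and 5th in the other one, and 5th to 7th in KO. The relative effective length that the quantification gave Lipc lay between 0.746 and 0.841 in Het livers and between 0.815 and 1 in KO livers, scaled to the longest, so its change in TPM was larger than in counts. The log2 ratio of mean TPM was -1.82.

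**Figure D2:**
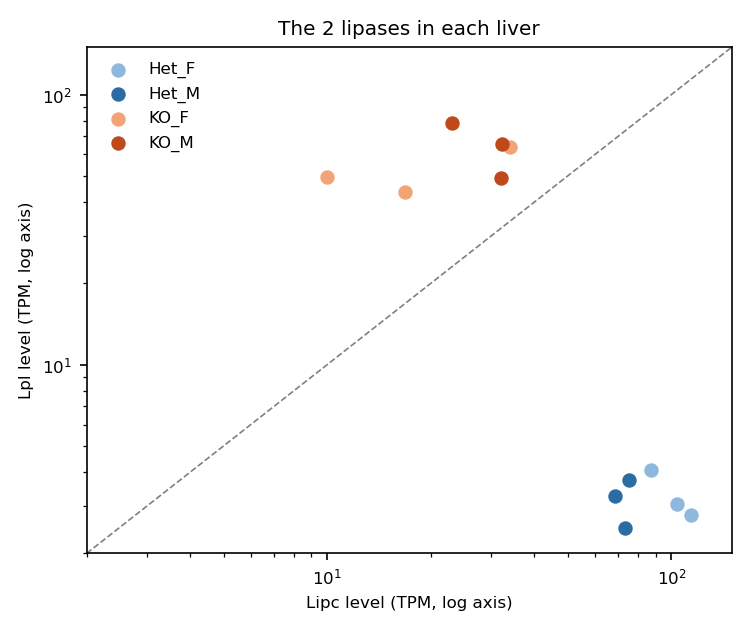
Level of Lpl against Lipc in each liver (TPM, both axes log, dashed line of equal level, 1 point per liver). The 6 Het livers lie below the line, at Lpl 2.48 to 4.08 TPM, and the 6 KO livers lie above it, at Lpl 43.6 to 78.8 TPM.

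Lmf1, the chaperone for folding of lipases in the endoplasmic reticulum, was lower in KO by a small amount. Its level was 27.6, 27.4 and 29.96 CPM in Het females and 38.2, 34.6 and 37.8 CPM in Het males. In KO it was 21.8, 25.7 and 26.5 CPM in females and 24.1, 24.4 and 27.0 CPM in males. All KO livers lay below all Het livers. Lmf1 fell by 0.37 ± 0.0789 on the log2 scale (SE, n = 6 per genotype, 1.30-fold, edgeR adjusted P = 0.00696). Of the 9 genes it had the smallest spread within groups, with an SD of 0.103 on log2 CPM against a median of 0.348 over all tested genes. In males it fell by 0.55 ± 0.112 (edgeR adjusted P = 0.0154, n = 3 per group), and in females the log2 fold change was -0.20 ± 0.111 (edgeR adjusted P = 0.264, n = 3 per group). The unadjusted P of the interaction was 0.0461 (edgeR, adjusted P = 0.553), with a difference of -0.35 ± 0.158 and an interval of -0.694 to -0.00710. The male call did not hold without Het_M_119, Het_M_137, KO_M_118 or KO_M_122.

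Gpihbp1, the endothelial carrier of lipoprotein lipase, had overlapping levels in the genotypes. In Het its level was 8.07 to 13.3 CPM with a median of 9.26 CPM, and in KO it was 6.26 to 12.1 CPM with a median of 9.03 CPM. The groups overlapped widely. The log2 fold change was -0.07 ± 0.163 (interval -0.429 to 0.281, edgeR adjusted P = 0.784, n = 6 per genotype).

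Among the activators, Apoc2, the cofactor needed for lipoprotein lipase activity, was at 165, 104 and 213 CPM in Het females and 112.4, 143 and 77.2 CPM in Het males. In KO it was at 170, 335 and 156 CPM in females and 227, 289 and 151 CPM in males. The KO livers lay above the Het livers in males but overlapped them in females. The log2 fold change was 0.73 ± 0.261 (interval 0.158 to 1.30), with an unadjusted P of 0.0169 and an adjusted P of 0.0674 (edgeR, n = 6 per genotype). It was 1.01 ± 0.371 in males (edgeR adjusted P = 0.132) and 0.46 ± 0.367 in females (edgeR adjusted P = 0.454). Apoa5, which aids lipolysis at the capillary wall, ran from 639 to 1380 CPM in Het with a median of 959 CPM, and from 940 to 1620 CPM in KO with a median of 1050 CPM. Its log2 fold change was 0.24 ± 0.185 (interval -0.165 to 0.641, edgeR adjusted P = 0.387, n = 6 per genotype), and groups overlapped.

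Among the inhibitors, Apoc3 had the highest level of the 9 genes in TPM in every liver. Its level in Het was 688 to 820 CPM with a median of 735 CPM, and in KO 647 to 1100 CPM with a median of 699 CPM. The log2 fold change was 0.04 ± 0.124 (interval -0.234 to 0.308, edgeR adjusted P = 0.862, n = 6 per genotype), and KO_F_112 had the highest KO value.

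Angptl4, which is induced by fasting and unfolds lipoprotein lipase, differed most between livers within groups after Angptl8. Its level was 144, 156 and 32.1 CPM in Het females and 141, 81.4 and 43.7 CPM in Het males. In KO it was 202, 102 and 68.7 CPM in females and 71.0, 113 and 31.6 CPM in males. The genotypes covered nearly the same range, and each held livers at low and high levels. The log2 fold change was -0.07 ± 0.486 (interval -1.15 to 1.02, edgeR adjusted P = 0.940, n = 6 per genotype), an interval wide enough to hold a more than 2-fold change in either direction.

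Angptl8, which is induced by feeding and restrains lipoprotein lipase, was 19.0, 40.0 and 88.6 CPM in Het females and 18.6, 75.6 and 55.8 CPM in Het males. In KO it was 5.43, 21.4 and 9.90 CPM in females and 4.93, 42.0 and 9.35 CPM in males. In KO, 4 of 6 livers lay below every Het liver, and KO_M_122 and KO_F_112 lay within the Het range. The log2 fold change was -1.71 ± 0.640 (interval -3.14 to -0.275), with an unadjusted P of 0.0242 and an adjusted P of 0.0857 (edgeR, n = 6 per genotype). The SD within groups was 1.21 on log2 CPM, in the 97.9th percentile of all tested genes, and that of Angptl4 was 0.982, in the 95.6th. On leaving out 1 liver, the log2 fold change ran from -1.34 without Het_F_126 (edgeR adjusted P = 0.173) to -2.39 without KO_M_122 (edgeR adjusted P = 0.0235), and of these 12 fits only that without KO_M_122 passed.

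**Figure D3:**
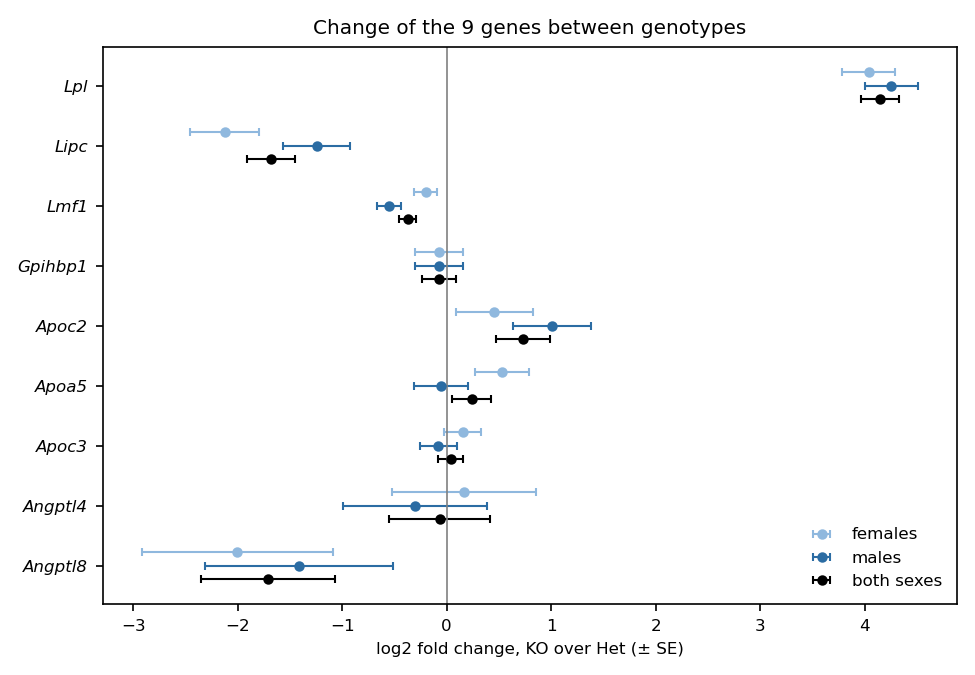
Log2 fold change of each of the 9 genes between KO and Het (points) with its SE (bars), in females, males and both sexes. Lpl lies near 4, Lipc and Angptl8 lie below -1, and the SE of Angptl4 and Angptl8 in both sexes is 0.486 and 0.640.

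Without KO_F_108, the liver farthest along the first component, the log2 fold changes were 4.19 ± 0.183 for Lpl, -1.53 ± 0.168 for Lipc (edgeR adjusted P = 0.000294) and -0.33 ± 0.0718 for Lmf1 (edgeR adjusted P = 0.0104).

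Counting over the 8 genes other than Lpl, 2 passed the threshold in both sexes together, against 21.7% of all tested genes. Lipc was the only 1 of them to pass in females, against 9.83%, and Lipc and Lmf1 passed in males, against 6.92%. The genes were picked by role with results known, so nothing is read from these counts.

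By TPM, Apoc3 stood 1st in every liver, and Apoa5 stood 2nd and Apoc2 3rd in all livers but KO_M_122, where these 2 changed places. The places of the other genes varied more. In Het, Apoc3 ran from 1250 to 1670 TPM and stood apart from the rest. Apoa5 (319 to 555 TPM), Apoc2 (114 to 335 TPM) and Lipc (68.5 to 114 TPM) followed, and each range touched or overlapped the next. Angptl8 (16.7 to 93.8 TPM) and Angptl4 (12.6 to 63.8 TPM) overlapped each other, as did Lmf1 (11.8 to 14.3 TPM) and Gpihbp1 (7.59 to 15.4 TPM). Lpl stood below all. In KO, Apoc3 (1240 to 1940 TPM), Apoa5 (382 to 767 TPM) and Apoc2 (229 to 462 TPM) stood above the other genes. Lpl (43.6 to 78.8 TPM) overlapped Angptl4 (12.9 to 85.8 TPM) and none of the other genes.

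Of 33 other genes that handle triglyceride-rich lipoproteins, 5 rose and 7 fell in KO, and 21 did not pass, against 21.7% called over all genes. Their median log2 fold change was -0.17, and that of all genes was 0.00802. The pathway and marker lists were also drawn up with earlier results of these data known, so nothing is read from their counts. The 3 with the smallest P values were Angptl6, Pcsk6 and Apoa2. Angptl6, a relative of the ANGPTL inhibitors, fell by 1.54 ± 0.177 on the log2 scale (edgeR adjusted P = 0.000279), from a median of 9.78 to 3.02 CPM. Pcsk6, a proprotein convertase that cleaves lipases and ANGPTL proteins, fell by 0.68 ± 0.123 (edgeR adjusted P = 0.00317). Apoa2, an HDL apolipoprotein, fell by 0.82 ± 0.162 (edgeR adjusted P = 0.00501). Lipg, Cd36 and Apoa4, which were singled out after their values were seen, also changed. Lipg, which encodes endothelial lipase, the third lipase of this family in plasma, fell by 2.62 ± 0.530 (edgeR adjusted P = 0.00820), with all KO livers below all Het livers. Cd36, a fatty acid uptake receptor, rose by 0.77 ± 0.191 (edgeR adjusted P = 0.0154), with a median of 81.3 CPM in Het and 146 CPM in KO. Apoa4, an apolipoprotein of chylomicrons, rose by 1.36 ± 0.387 (edgeR adjusted P = 0.0318).

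Among 27 transcription factors and cofactors that are known to act on these genes, 1 rose and 12 fell, and 14 did not pass, against 21.7% called over all genes. Their median log2 fold change was -0.25. Cebpa, a hepatocyte and adipocyte differentiation factor, fell by 1.11 ± 0.149 (edgeR adjusted P = 0.000624). Nr1h4, the bile acid receptor FXR, fell by 1.04 ± 0.158 (edgeR adjusted P = 0.00126), and Nr1h3, the oxysterol receptor LXRα, fell by 0.50 ± 0.0818 (edgeR adjusted P = 0.00194). Ppara, the fatty acid receptor that acts on Lpl, Angptl4 and Apoc3 genes, fell by 1.38 ± 0.226 (edgeR adjusted P = 0.00216), from a median of 217 to 76.6 CPM, and was named after its values were seen. Of 22 tested PPAR target genes of liver, 0 rose and 11 fell by edgeR, against 11.4% higher and 10.3% lower over all genes. The median of these targets was -0.67, and 1 was higher at an unadjusted P under 0.05. This list too was drawn up with results known, so its counts are a description. DESeq2 and limma also called 0 higher and 11 lower, but without Het_M_125 edgeR called 2 higher and 8 lower, and without KO_M_136 it called 1 higher and 8 lower. Mgll, which encodes monoacylglycerol lipase, fell by 1.70 ± 0.258 (edgeR adjusted P = 0.00155). Plin2, a lipid droplet protein, fell by 1.61 ± 0.294 (edgeR adjusted P = 0.00418). By sex, 9 of the 22 PPAR targets were lower in KO females (median log2 fold change -0.75) and 2 in KO males (median -0.49), and 7 of the 27 factors were lower in females and 5 in males. Over all genes, more were called in females as well (9.83%, either direction) than in males (6.92%). In the interaction of genotype and sex, edgeR called 0 genes of either list, and 3 of each list had an unadjusted P under 0.05, so a difference between sexes was not shown.

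**Figure D4:**
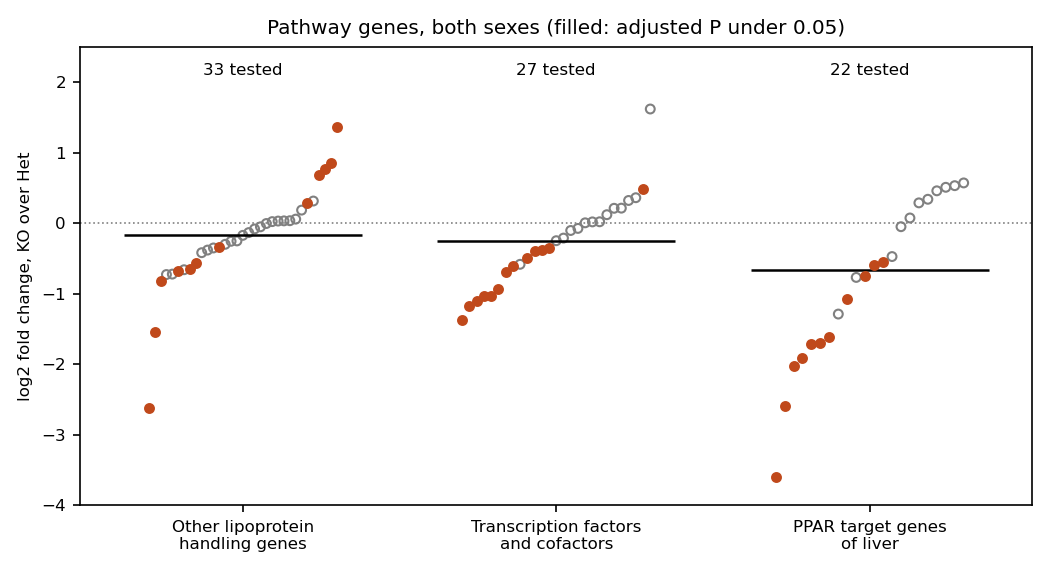
Log2 fold change between KO and Het in both sexes of each tested gene of the 3 pathway lists (points, filled where the edgeR adjusted P was under 0.05), with a line at the list's median. The medians are -0.17, -0.25 and -0.67, and no filled point lies above 0 among the PPAR target genes.

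Bulk liver RNA cannot tell fewer cells of a type from less RNA per cell, and Lpl is also made by macrophages and adipocytes. Over all genes, 11.4% were called higher and 10.3% lower in KO, and these shares stand beside every marker count given here and next. Of 13 Kupffer cell and macrophage markers, 7 were higher in KO and the other 6 did not pass. Their summed level in females lay between 397 and 515 CPM in Het livers and between 527 and 794 CPM in KO livers, and in males between 205 and 291 CPM in Het livers and between 353 and 781 CPM in KO livers. Every KO liver thus lay above every Het liver of its sex, and the ranges overlapped only where the sexes were pooled. Hepatocyte marker sums also separated within each sex. They were 74700 to 85700 CPM in Het and 88900 to 147000 CPM in KO females, and 61100 to 77800 and 84600 to 107000 CPM in males. Striated muscle sums separated even with the sexes pooled, and exocrine pancreas sums were lower in KO within each sex. Each of these sums was mostly 1 gene. It was Alb for hepatocytes (median 52000 CPM in Het and 65500 CPM in KO, edgeR adjusted P = 0.0581). It was Ttn for muscle (1.4 and 3.44 CPM) and Cela1 for pancreas (6.06 and 3.71 CPM). How many genes separate within 1 sex was not counted. The macrophage markers of highest level were Clec4f (0.56 ± 0.244, edgeR adjusted P = 0.127) and Cd5l (0.78 ± 0.243, edgeR adjusted P = 0.0415). Of 11 markers of monocyte-derived and lipid-associated macrophages, 6 were higher in KO and the other 5 did not pass, with a summed level of 40.0 to 73.3 CPM in Het and 45.2 to 83.3 CPM in KO. Spp1 and Cd9 had the highest level of that list, at log2 fold changes of -0.36 (edgeR adjusted P = 0.430) and 0.75 (edgeR adjusted P = 0.00908). Spp1 made up much of the sum, with medians of 37.3 CPM in Het and 27.9 CPM in KO. The sum therefore says little about markers of low level. Gpnmb, Mmp12 and Trem2, named after their values were seen, had the smallest P values of that list. They had all KO livers above all Het livers, as 884 of the 19355 tested genes did. Their log2 fold changes were 3.74, 2.69 and 2.1, at KO medians of 2.23, 1.8 and 2.11 CPM. Ccr2 (-0.401), Fabp5 (-0.186) and Itgax (-0.0335) of the same list, like Spp1, had negative log2 fold changes that did not pass. The part of macrophages in the rise of Lpl was not tested. Of 9 adipocyte markers 4 were tested, and 1 was higher in KO. It was Fabp4, named after its values were seen, which endothelial cells and macrophages also express (0.70 ± 0.217, edgeR adjusted P = 0.0385, median 2.71 CPM in Het and 4.40 CPM in KO). The adipocyte marker Lep was at 0 in every liver, Adipoq was at most 0.0333 CPM and Plin1 was at most 0.133 CPM. The adipocyte list summed to 85.2 to 717 CPM in Het and 24.5 to 324 CPM in KO, and most of it was Thrsp, which hepatocytes also express.

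Endothelial cells, which make Gpihbp1, had 14 markers on the list. Of these, 7 were lower in KO, against 10.3% of all genes, and the other 7 did not pass. The summed level was 404 to 742 CPM in Het and 301 to 653 CPM in KO, and Clec4g (-0.84 ± 0.165, edgeR adjusted P = 0.00483) and Stab1 (-0.45 ± 0.138, edgeR adjusted P = 0.0376) had the highest level. Gpihbp1 itself did not pass, as above. Of 13 stellate cell markers, 7 were lower in KO and the other 6 did not pass, from 362 to 696 CPM in sum in Het and from 187 to 378 CPM in KO. Of these, Dcn and Ecm1 had the highest level, at -0.45 (edgeR adjusted P = 0.0590) and -1.15 (edgeR adjusted P = 0.000693). Striated muscle markers were summed at 1.30 to 2.64 CPM in Het and 3.49 to 6.82 CPM in KO, and the 2 that were tested, Ttn and Tnnt2, were both higher. Exocrine pancreas markers were summed at 5.10 to 18.1 CPM in Het and 4.22 to 5.82 CPM in KO, with Cela1 lower and Cela2a higher. The 6 bile duct markers, led by Epcam and Sox9, were at most 12.8 CPM in sum, and 0 were called (edgeR, DESeq2 and limma, and with edgeR 0 at an unadjusted P under 0.05). Of 10 tested blood markers, 1 was higher and 1 lower, and the most abundant were Hba-a1 (adjusted P = 0.395) and Hbb-bs (adjusted P = 0.458, edgeR). Hepatocyte markers, led by Alb and Ahsg, summed to 61100 to 85700 CPM in Het and 84600 to 147000 CPM in KO, and 2 of 11 were higher and 1 lower.

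**Figure D5:**
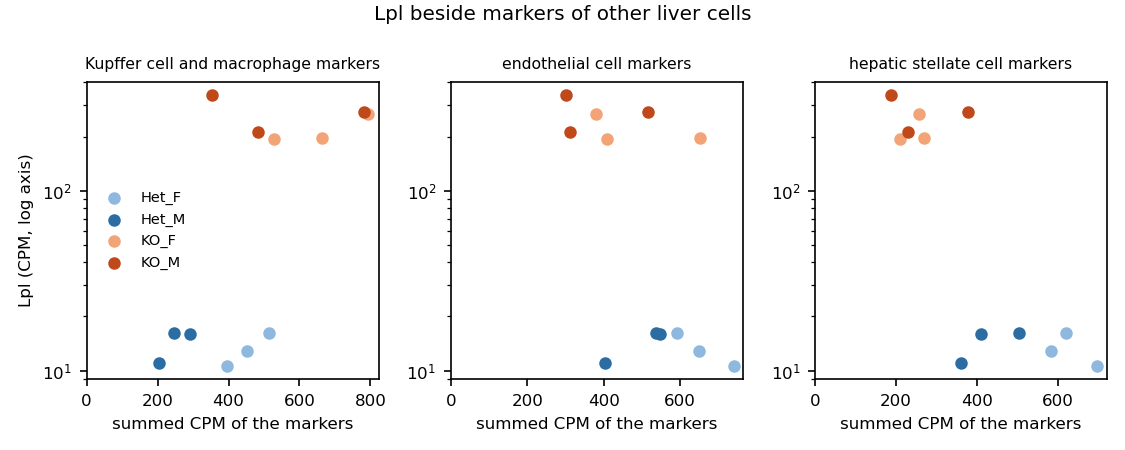
Level of Lpl (CPM, log axis) against the summed CPM of the markers of Kupffer cells and macrophages, endothelial cells and stellate cells in each liver (1 point per liver, coloured by group). The macrophage sum of every KO liver lies above that of every Het liver of the same sex (527 to 794 against 397 to 515 CPM in females, 353 to 781 against 205 to 291 CPM in males). Its median is 344 CPM in Het and 595 CPM in KO, and that of Lpl is 14.4 and 239 CPM. Among the KO livers, KO_M_136 has the highest Lpl (341 CPM) and the lowest macrophage sum (353 CPM). KO_M_122 has the next highest Lpl (275 CPM) and a macrophage sum of 781 CPM. A link between the 2 was not tested.

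Over the 12 livers, 13412 genes had a mean of at least 1 CPM. Those with the highest Pearson's r to Lpl on log2 CPM were Prtn3 (0.993), Rab11fip5 (0.984), Gldn (0.979), Dnah1 (0.979) and Faap20 (0.978). Each of these 5 was higher in KO, with log2 fold changes from 1.06 to 6.16. This r includes the genotype difference of Lpl that chose the set, so it mostly reflects the step between genotypes. Prtn3, Gldn and Dnah1 had Het medians of 0.0159, 0.0293 and 0.197 CPM. Their KO medians were 5.38, 6.10 and 6.94 CPM, so they reached the mean of 1 CPM only through the KO livers. Over deviations from the 4 group means, the closest genes were Zfp563 (0.925), Zfp937 (0.911), Sirt6 (0.909), Camta1 (0.884) and Ext2 (0.850). These are descriptions over 12 livers with no P value, and each set is the highest 5 of 13412 genes. A search of that size brings up high r values even among unrelated genes. Taking out the 4 group means also leaves fewer than 12 free values.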

How the data were processed

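Liver total RNA from 12 mice was depleted of ribosomal RNA and sequenced as strand-marked paired reads. The authors processed reads with nf-core/rnaseq, STAR 2.7.9a and Salmon 1.10.1 on GRCm39, per the labels and methods, and deposited estimated counts (expected counts per gene, of which 12.0% were not whole) and TPM. The members and lists were chosen with earlier results of these data known. Deposited estimated counts were rounded, genes with a minimum of 5 reads in no fewer than 3 livers were kept, and 19355 were tested with edgeR 4.0.16 (R 4.3.3, TMM scaling, prior count 2, robust quasi-likelihood fits, group means for genotype and sex). CPM is the count over the scaled library total. The log2 fold change for both sexes is the mean of the sex-specific log2 fold changes. Intervals are 95% from the t distribution. The small RNAs Rn7s1, Rn7s2 and Rn7sk took 50.0 to 59.9% of TPM, which lowers all other TPM alike within a liver. Named genes were the 9 members, Xpa, Ercc8, the 3 genes of smallest P of each pathway list, the 2 marker genes of highest TPM of each marker list and the 5 genes most like Lpl. A gene that this rule names is not reported here. DESeq2 1.42.0 and limma 3.58.1 on log2(TPM + 1) and log2(TPM + 0.1) were alternatives. The self-test on simulated data was passed. Sequences and coordinates came from RefSeq and GENCODE vM39. The depth of 30044812 to 43634073 counts limits precision of low genes. No batch was named in the labels.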

Additional observations from a re-analysis of the deposited data

Results flagged for a closer look

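Apoc3 in the KO livers had 1 liver, KO_F_112, whose gap to the nearest other liver was 0.641 of the group's range, above the 95% limit of the Dixon test for 6 livers. Of 18 groups tested, chance flags about 1 in 20.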

How the results depend on the processing

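Each mouse number belongs to 1 animal, and the labels name no litter. The Het mice were littermates, but pairing or blocking by litter could not be used, and litter was not in the model. The count of the 8 tested members called in both sexes was 2, and 4 with DESeq2, which added Angptl8 (adjusted P = 0.0383) and Apoc2 (adjusted P = 0.0245). It was 3 with limma on log2(TPM + 0.1), where Apoc2 passed (adjusted P = 0.0483). Leaving out 1 liver gave 2 to 3. In males the count of 2 became 0 with library size only and 1 without a filter, and 0 to 2 on leaving out 1 liver. In females it was 1 throughout, and in the sex and interaction comparisons 0 throughout. The Lpl log2 fold change in both sexes was 3.79 on log2(TPM + 1) and 4.06 to 4.23 on leaving out 1 liver. With all livers, genes called in both sexes ranged from 3254 with limma on log2(TPM + 1) to 5045 with DESeq2. On leaving out 1 liver they ranged from 2959 without KO_M_118 to 4140 without KO_F_123. On leaving out 1 liver, the pathway lists had 8 to 13 (lipoprotein handling), 11 to 13 (transcription factors) and 9 to 11 (PPAR targets) genes called, the 8 without KO_M_118.

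Changes of sign were seen only in fold changes that did not pass the threshold. Angptl4 in both sexes was 0.00636 on log2(TPM + 1) and 0.00828 on log2(TPM + 0.1). Apoc3 in males was 0.0204 and 0.0205 on those scales, and Apoa5 in males was 0.0250 with library size only. The Gpihbp1 interaction was 0.148 with library size only, 0.00183 without a filter, 0.0701 with length-scaled counts and 0.191 and 0.201 on the 2 TPM scales. On leaving out 1 liver, Angptl4 ran from -0.338 to 0.183 in both sexes, from -0.375 to 0.495 in females, from -0.777 to 0.200 in males and from -0.956 to 0.0744 in the interaction. Angptl8 ran from -0.799 to 1.26 in the interaction and from -0.365 to 0.686 by sex. Apoa5 ran from -0.235 to 0.199 in males and from -0.217 to 0.0100 by sex. Apoc3 ran from -0.0677 to 0.111 in both sexes and from -0.0654 to 0.300 in females. Gpihbp1 ran from -0.192 to 0.0240 in both sexes, from -0.217 to 0.125 in females, from -0.327 to 0.0960 in males and from -0.268 to 0.167 in the interaction. Lipc by sex ran from -0.0319 to 0.392. The causes were not tested. With 3 mice per group, small changes of variable genes such as Angptl4 were not detectable.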
